A study of Mus musculus with 21 samples.

Results

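The 10 genes described here encode proteins that build and organise the mitotic spindle: Aurka, Tpx2, Nusap1, Hmmr, Dlgap5, Prc1, Tacc3, Ckap2, Ckap5 and Spag5. They were taken by gene symbol from the platform annotation of the Affymetrix Mouse Genome 430 2.0 array. All 10 are on the array, with 27 of its 45101 probe sets, and 25 of these 27 passed the filter on dim probe sets. The arrays measured total RNA of mouse cerebellar tumour cells sorted for CD15, a carbohydrate surface antigen. The 21 arrays form 4 groups by their titles. Tumours titled math-1GFP gave 4 arrays of CD15 positive and 5 of CD15 negative cells, and tumours titled conventional gave 6 of each. The descriptions of all arrays but 1, whose text is cut short, name conventional Patched medulloblastomas, also for the Math1-GFP arrays, so the groups rest on the titles. Patched (Ptch1) restrains Hedgehog signalling, and its loss gives tumours of the granule neuron lineage. Math1, now Atoh1, is the transcription factor that marks the precursors of granule neurons. The allele of Patched, the age of the mice, the number of animals and the cells that carry GFP are not stated in the labels used here. Whether the arrays within a group stem from different mice is not said, and p-values therefore rest on array-to-array spread, part of which may be technical. Titles of all Math1-GFP arrays end in le2 and those of all conventional arrays in le1, so the tumour model cannot be told apart from whatever that suffix records.

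The mitotic spindle is a bipolar array of microtubules that separates the chromosomes. The kinase Aurora A, activated by Tpx2 near chromosomes and at the spindle poles, drives its assembly, and Tacc3, Dlgap5 and Hmmr act with it on the microtubules between poles and chromosomes. Most of these genes are transcribed mainly in G2 and mitosis. In the developing cerebellum the granule neuron precursors are among the dividing cells, and neurons that have left the cycle do not build a spindle. In RNA of sorted cells, fewer cells of a type and less RNA per cell cannot be told apart.

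The proximal promoters of these genes are shown because the genes moved together across the arrays, as described further on. RefSeq promoter sequences of build GRCm38.p6 were available for 8 of the 10 genes, each with 250 bases before and 50 bases after the annotated start; Tpx2 and Dlgap5 had no entry. The windows were searched on both strands for TTTGAA, the core of the cell cycle genes homology region (CHR), and for CCAAT. Both motifs were found in promoters of 6 of the 8 genes (Aurka, Hmmr, Prc1, Ckap2, Ckap5 and Spag5) and neither in those of Nusap1 and Tacc3. Of all 27025 genes with a promoter, 20.2% have TTTGAA, 41.1% have CCAAT and 7.97% have both. Counted over all 32851 promoters, 17.9% hold TTTGAA, 37.4% hold CCAAT and 6.95% hold both. No match overlapped another. Below, the last 110 bases before the start and the first 50 after it are given 5′ to 3′ on the gene's strand, with the motif matches in capitals. On the opposite strand TTTGAA reads TTCAAA and CCAAT reads ATTGG.
Aurka (chr2:172370521-172370680, minus strand): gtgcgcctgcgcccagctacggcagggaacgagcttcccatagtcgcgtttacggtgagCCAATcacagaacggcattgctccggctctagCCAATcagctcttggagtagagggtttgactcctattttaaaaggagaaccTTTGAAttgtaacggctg
Hmmr (chr11:40733388-40733547, minus strand): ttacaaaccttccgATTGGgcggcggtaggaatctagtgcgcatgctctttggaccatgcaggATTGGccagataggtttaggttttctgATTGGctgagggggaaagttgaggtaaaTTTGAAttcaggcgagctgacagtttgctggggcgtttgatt
Spag5 (chr11:78301481-78301640, plus strand): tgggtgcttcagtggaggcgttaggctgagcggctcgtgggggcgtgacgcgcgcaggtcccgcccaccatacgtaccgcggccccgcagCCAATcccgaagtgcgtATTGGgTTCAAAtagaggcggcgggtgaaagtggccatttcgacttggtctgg
Prc1 (chr7:80294341-80294500, plus strand): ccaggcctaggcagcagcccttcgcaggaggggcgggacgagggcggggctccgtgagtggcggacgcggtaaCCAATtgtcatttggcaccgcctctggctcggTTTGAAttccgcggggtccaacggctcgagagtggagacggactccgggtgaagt
Ckap2 (chr8:22185770-22185929, minus strand): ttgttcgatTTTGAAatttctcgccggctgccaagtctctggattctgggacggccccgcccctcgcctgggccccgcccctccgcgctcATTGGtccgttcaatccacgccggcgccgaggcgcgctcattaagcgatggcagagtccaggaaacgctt
Ckap5 (chr2:91526652-91526811, plus strand): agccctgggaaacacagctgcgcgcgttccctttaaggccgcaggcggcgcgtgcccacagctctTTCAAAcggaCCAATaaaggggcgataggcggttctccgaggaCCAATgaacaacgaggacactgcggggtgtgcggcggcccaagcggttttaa
The CHR letters lay close to the start in Aurka (positions 33 to 38, counted from 1 at the first base after the start), Hmmr (9 to 14) and Spag5 (4 to 9). They lay just before the start in Ckap5 (-45 to -40) and farther from it in Ckap2 (-101 to -96). Prc1 has 2 entries, and the one shown has the motif at -5 to 1. Hmmr held the most CCAAT matches, 5 in the 300 bases. A match describes the letters only.

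Values below are array signals, the deposited intensities. Fold changes and tests are on the log2(signal + 32) scale, which makes the change of a dim gene smaller. Unless another probe set is named, a gene is represented by its brightest one. Tests are from limma fitted to all 21 arrays and 12367 genes, without pairing of arrays. They are two-sided, with Benjamini-Hochberg adjustment over all genes tested and a threshold of 0.05. Errors of fold changes are standard errors (SE).

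In conventional tumours 9 of the 10 genes rose in CD15 positive cells, by 1.61- to 1.87-fold, and Ckap5 did not pass. Over all genes tested, 3.05% rose and 5.09% fell in this comparison. The median log2 fold change of the 10 genes was 0.82, against -0.02 over all genes. In 6 of the 10 genes (Nusap1, Hmmr, Dlgap5, Tacc3, Ckap2 and Spag5) every CD15 positive array lay above every CD15 negative array, as for 1.89% of all genes. In each of the 5 pairs of arrays that share a title number, 2 to 6, all 10 genes were higher in the CD15 positive array. The share of all genes that did so was not computed.

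The kinase and its activator moved alike. Aurka had a lowest, median and highest signal of 828, 938 and 1221 in CD15 positive arrays, against 343, 549 and 893 in CD15 negative arrays. The groups overlapped through a single CD15 negative array, number 6, and the log2 fold change was 0.80 ± 0.16 (SE, adjusted p = 0.0041). Tpx2 had 831, 949 and 1189 in CD15 positive arrays, against 388, 604 and 916 in CD15 negative arrays (log2 fold change 0.73 ± 0.15, adjusted p = 0.0045). Array 6 was again the CD15 negative array within the CD15 positive range.

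Among proteins of the spindle poles and kinetochore fibres, the microtubule bundles that reach the chromosomes, Dlgap5 had the smallest p of the 10 genes. Dlgap5, also called HURP, stabilises these fibres and is a substrate of Aurora A. It had a lowest, median and highest signal of 266, 336 and 374 in CD15 positive arrays, against 124, 172 and 214 in CD15 negative arrays (log2 fold change 0.85 ± 0.12, adjusted p = 3.4e-04). Tacc3, which Aurora A phosphorylates and which bridges fibre microtubules together with clathrin and Ckap5, had 604, 696 and 830.1 in CD15 positive arrays, against 251, 389.8 and 578 in CD15 negative arrays (0.84 ± 0.15, adjusted p = 0.0017). Hmmr, a hyaluronan receptor that also binds spindle pole microtubules, had 682, 778 and 981 in CD15 positive arrays, against 304, 423 and 536 in CD15 negative arrays (0.89 ± 0.16, adjusted p = 0.0019). In none of these 3 genes did the groups overlap. Spag5, or astrin, which secures attachments of microtubules to kinetochores, had 480.2, 511 and 616 in CD15 positive arrays, against 239, 316 and 445 in CD15 negative arrays (0.69 ± 0.13, adjusted p = 0.0025). Its groups were separated by a small margin, with CD15 negative array 6 the nearest.

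The microtubule-binding proteins Ckap2, Nusap1 and Prc1 rose by a like amount. Ckap2, a spindle microtubule protein that promotes microtubule growth, had the largest estimate of the 10 genes. Its lowest, median and highest signals were 1036, 1324 and 1611 in CD15 positive arrays, against 423, 704 and 908 in CD15 negative arrays (log2 fold change 0.91 ± 0.17, adjusted p = 0.0025). Nusap1, which bundles microtubules around chromosomes, had 1515, 1847 and 2258 in CD15 positive arrays, against 713, 1049.7 and 1508 in CD15 negative arrays (0.85 ± 0.18, adjusted p = 0.0054). The lowest CD15 positive and the highest CD15 negative array of Nusap1 were nearly equal. Prc1, which crosslinks antiparallel microtubules in the midzone of the anaphase spindle, had 682, 927 and 993 in CD15 positive arrays, against 423, 524 and 711 in CD15 negative arrays (0.70 ± 0.14, adjusted p = 0.0045). Its overlap came from CD15 positive array 5, which lay below CD15 negative array 2.

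Ckap5 was the gene without a called difference. It encodes the microtubule polymerase known in human as ch-TOG, which lengthens microtubules in the spindle and also acts in cells that do not divide. Its lowest, median and highest signals were 438, 498 and 640.4 in CD15 positive arrays, against 362, 433 and 535 in CD15 negative arrays. The groups overlapped. The log2 fold change was 0.20 ± 0.11 (SE, adjusted p = 0.29), with a 95% interval from -0.03 to 0.43. That interval lies below the estimate of each of the other 9 genes, the lowest of which is 0.69 for Spag5. The differences between genes were not tested. Within the 5 numbered pairs Ckap5 was higher in the CD15 positive array each time, by 0.09 to 0.30 on the log2 scale, while Dlgap5 was higher by 0.71 to 1.13.

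**Figure D1:**
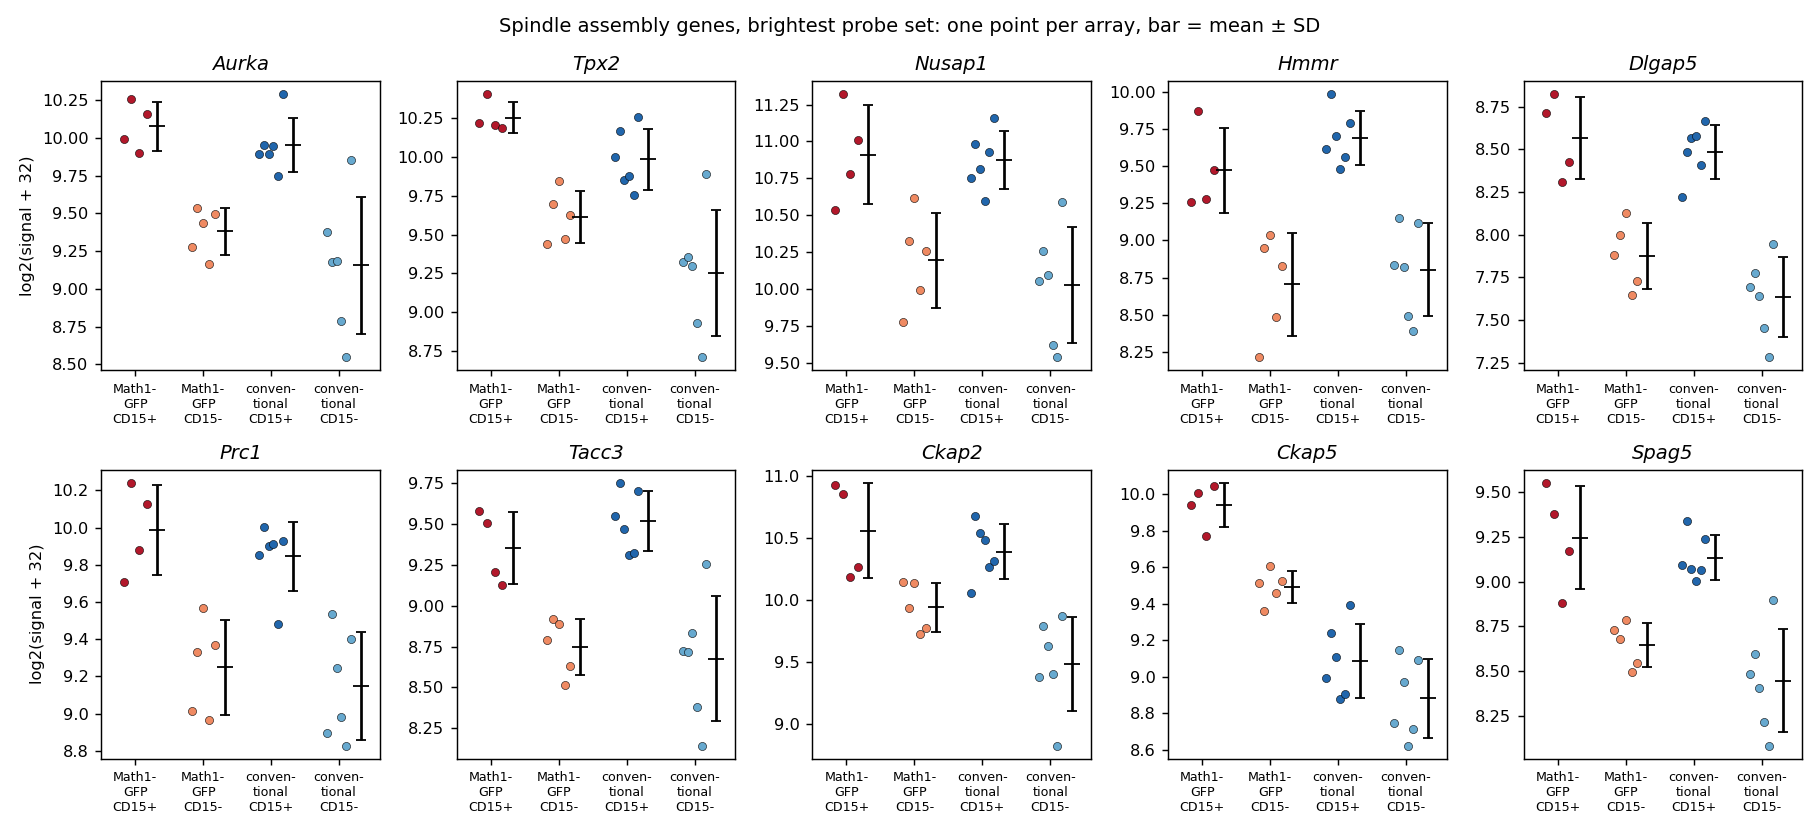
Array values of the brightest probe set of each gene as log2(signal + 32), with 1 point per array and a bar for the mean ± SD of each group (n = 4, 5, 6 and 6 from left to right); each panel has its own axis range. CD15 positive arrays lie above CD15 negative arrays of the same tumours for most genes. For Ckap5 they do so in Math1-GFP tumours but overlap in conventional tumours, and its level is higher in both Math1-GFP groups.

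The rise in conventional tumours did not rest on 1 array: leaving out any array in turn left 9 called genes, with a median log2 fold change of 0.71 to 0.93. With a gene's probe sets averaged, Tpx2 (adjusted p = 0.065) and Tacc3 (adjusted p = 0.099) did not pass. The unnumbered conventional arrays and array 6 deviated together from their group means over all genes (r = 0.38 and 0.48 across fractions) and against arrays 2 to 5 (r of -0.56 to -0.15), so both sets were also fitted alone. In arrays 2 to 5 alone 9 genes passed, where 311 of all 12367 genes were called higher and 584 lower. In the other set, with 2 arrays a group, none did, and limma called 0 of all genes, with 967 at an unadjusted p under 0.05. There the 10 log2 fold changes were 0.28 (Ckap5) to 0.74 (Prc1), with a median of 0.59.

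In Math1-GFP tumours all 10 genes were higher in CD15 positive cells, by 1.37- to 1.70-fold, but none passed in limma over all genes. Adjusted p was 0.078 for Dlgap5 to 0.25 for Ckap2. This comparison called 0.0162% of all genes as higher. At an unadjusted p under 0.05 all 10 were higher, against 3.73% of all genes. The median log2 fold change was 0.66, against 0.0048 over all genes. In 9 of the 10 genes, all but Nusap1, the 4 CD15 positive arrays lay above the 5 CD15 negative arrays, as for 2.54% of all genes.

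Dlgap5 came nearest to the threshold. Its signal was 388, 421, 285 and 312 in CD15 positive arrays 1, 5, 7 and 9, against 204, 223, 247, 169 and 180.0 in CD15 negative arrays 2, 4, 6, 8 and 10, the order kept for the genes that follow (log2 fold change 0.69 ± 0.14, SE, adjusted p = 0.078). Prc1 followed with 802, 1177, 910.0 and 1084 in CD15 positive arrays, against 484, 613, 727, 468 and 629 in CD15 negative arrays (0.74 ± 0.17, adjusted p = 0.096). The groups did not overlap in either gene. Hmmr had 582, 907, 589.6 and 679.7 in CD15 positive arrays, against 265, 463, 494, 326 and 423 in CD15 negative arrays (0.77 ± 0.19, adjusted p = 0.13). This was the largest estimate of the 10 genes in these tumours. Aurka had 989, 1194, 923 and 1113 in CD15 positive arrays, against 588, 710.1, 661, 543 and 689 in CD15 negative arrays (0.70 ± 0.19, adjusted p = 0.15). Tpx2 had 1155, 1319, 1145 and 1132 in CD15 positive arrays, against 661, 797, 885, 677 and 758 in CD15 negative arrays (0.64 ± 0.17, adjusted p = 0.16). For both the kinase and its activator every CD15 positive array lay above every CD15 negative array.

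Nusap1 was the gene whose groups overlapped. It had 1452, 2525, 1723 and 2033 in CD15 positive arrays, against 846, 1252, 1537, 989.8 and 1193 in CD15 negative arrays, and CD15 negative array 6 exceeded CD15 positive array 1. Ckap5 had 951, 998, 842 and 1023 in CD15 positive arrays, against 698, 625, 747, 671 and 703 in CD15 negative arrays (log2 fold change 0.45 ± 0.13, SE, adjusted p = 0.17). It was the smallest estimate of the 10 genes here too, though its groups did not overlap. Spag5, Ckap2 and Tacc3 had log2 fold changes of 0.60, 0.62 and 0.61, with adjusted p of 0.13, 0.25 and 0.17.

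Some alternatives changed this outcome. With array weights 8 of the 10 genes passed (Tacc3 and Ckap2 did not). That fit called 77 of all 12367 genes higher and 110 lower, against 2 and 3 in the fit above. With the conventional title number as a block, among numbered arrays, 8 passed as well (adjusted p = 0.023 to 0.042; Nusap1 at 0.074 and Ckap2 at 0.11 did not). With this block 72 of all 12367 genes were called higher and 101 lower. The block pairs the conventional arrays only and leaves the Math1-GFP arrays unpaired. The Math1-GFP estimates therefore stay as they were while the shared estimate of the spread changes. Without Math1-GFP arrays 1 and 2 none passed.

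The CD15 difference was then compared between the models, as the difference in Math1-GFP tumours minus that in conventional tumours. None of the 10 genes passed in limma (adjusted p = 1.00 for each), where 0 of all genes passed and 279 genes, 2.26% of those tested, had an unadjusted p under 0.05. None of the 10 was among these. Estimates were -0.29 (Ckap2) to 0.25 (Ckap5) on the log2 scale. The interval for Ckap5 was -0.10 to 0.60 and that for Aurka -0.62 to 0.41, so differences of these sizes between the models could not be told from 0.

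**Figure D2:**
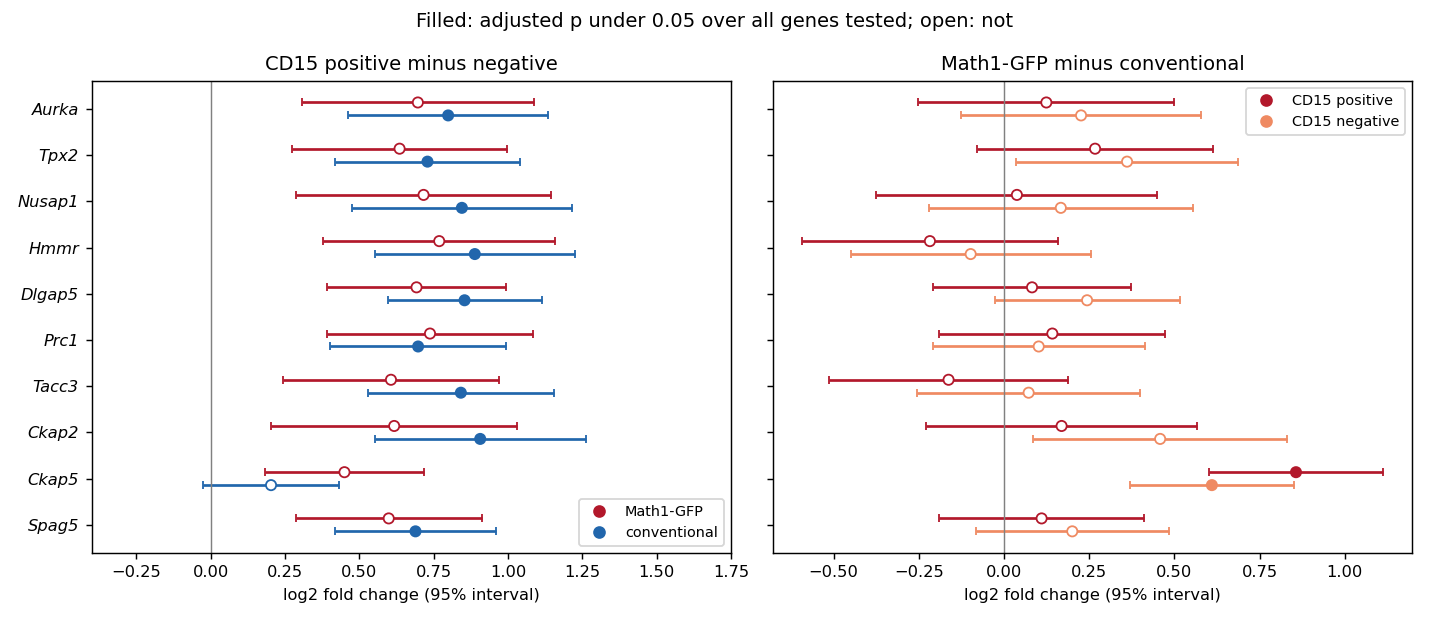
Log2 fold changes of the 10 genes with 95% intervals, for CD15 positive minus CD15 negative cells in each tumour model (left) and for Math1-GFP minus conventional tumours in each CD15 fraction (right); filled points passed an adjusted p of 0.05 over all genes tested. In conventional tumours 9 genes are filled on the left, and on the right only Ckap5 is.

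Between the tumour models Ckap5 was the gene of the 10 that passed the test. By its brightest probe set it was 1.81-fold higher in Math1-GFP than in conventional tumours among CD15 positive cells and 1.53-fold higher among CD15 negative cells. Among CD15 positive cells its signal was 951, 998, 842 and 1023 in Math1-GFP arrays, against a lowest, median and highest of 438, 498 and 640.4 in conventional arrays (log2 fold change 0.86 ± 0.12, SE, adjusted p = 7.1e-05). Among CD15 negative cells it was 698, 625, 747, 671 and 703 in Math1-GFP arrays, against 362, 433 and 535 in conventional arrays (0.61 ± 0.12, adjusted p = 0.0012). The groups overlapped in neither fraction. Non-overlap with the Math1-GFP group higher held for 6.26% of all genes among CD15 positive cells and 4.03% among CD15 negative cells. Ckap5 was called in both fractions under each of the 38 alternatives.

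The other 9 genes did not pass between the models in either fraction. Ckap5 was thus 1 gene of 10 called higher, against 10.9% of all genes among CD15 positive cells and 7.91% among CD15 negative cells, which is near the background. Among CD15 positive cells the estimates of the other 9 genes were -0.22 (Hmmr) to 0.27 (Tpx2), and among CD15 negative cells -0.10 (Hmmr) to 0.46 (Ckap2). Ckap2 had an interval of 0.09 to 0.83 (adjusted p = 0.080) and Tpx2 one of 0.04 to 0.69 (adjusted p = 0.11) among CD15 negative cells. With the conventional title number as a block Tpx2 passed there (0.38, adjusted p = 0.023).

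Further probe sets of these genes gave a second reading of each comparison. In conventional tumours all 25 probe sets past the filter were higher in CD15 positive cells, the 15 not used above by 0.04 to 0.83 on the log2 scale, and 5 of these 15 passed when every probe set was tested, where 2.07% of all probe sets rose. In Math1-GFP tumours 23 of the 25 were higher. The 2 that were not were 1447519_x_at of Tpx2 (-0.02) and 1416310_at of Nusap1 (-0.07). Between the models, called probe sets were 4 higher and 1 lower of 25 among CD15 positive cells, and 5 higher and 0 lower among CD15 negative cells. Over all probe sets 16.8% were called higher and 9.37% lower among CD15 positive cells, and 15.3% higher and 8.32% lower among CD15 negative cells, so these counts are near the background.

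For Ckap5 the second probe set, 1442271_at, did not share the difference. Its signal was 97.5, 71.0, 39.8 and 38.2 in Math1-GFP CD15 positive arrays, against a lowest, median and highest of 30.4, 41.3 and 60.3 in conventional CD15 positive arrays. The groups overlapped, and the log2 fold change was 0.29 (adjusted p = 0.26 over probe sets), or 0.09 (adjusted p = 0.74) among CD15 negative cells. This probe set is dim, and the pseudocount shrinks its fold change. The third, 1430647_at, lay below the filter.

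For Hmmr, Spag5 and Tpx2 the brightest probe set showed no called model difference while another did. Probe set 1450157_a_at of Hmmr had a signal of 213, 394, 300.3 and 319 in Math1-GFP CD15 positive arrays, against 109, 133 and 182 (lowest, median and highest) in conventional CD15 positive arrays. All Math1-GFP arrays were above all conventional ones, and the log2 fold change was 0.94 (adjusted p = 6.9e-04), or 1.09 (adjusted p = 9.0e-05) among CD15 negative cells. The brightest probe set of Hmmr had -0.22 and -0.10. Probe set 1427498_a_at of Spag5 had 203, 241, 186 and 212 in Math1-GFP CD15 positive arrays, against 85.2, 93.7 and 113 in conventional CD15 positive arrays. It changed by 0.93 (adjusted p = 8.1e-06) there and by 0.80 (adjusted p = 1.4e-05) among CD15 negative cells, where the brightest probe set had 0.11 and 0.20. Also called higher was 1427541_x_at of Hmmr among CD15 positive cells (0.52, adjusted p = 0.037). Among CD15 negative cells 1433892_at of Spag5 (0.44, adjusted p = 0.038) and the dim 1447519_x_at of Tpx2 (0.46, adjusted p = 0.043) were too. The brightest probe set of Tpx2 had 0.36 there (adjusted p = 0.10 over probe sets). Nusap1 went the other way. Its dim probe set 1416310_at had 23.5, 87.3, 30.3 and 19.8 in Math1-GFP CD15 positive arrays, against 53.8, 76.2 and 133 in conventional CD15 positive arrays (-0.76, adjusted p = 0.017), while the brightest had 0.04. The cause of these disagreements was not tested. Probe sets of 1 gene can read different transcript ends.

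**Figure D3:**
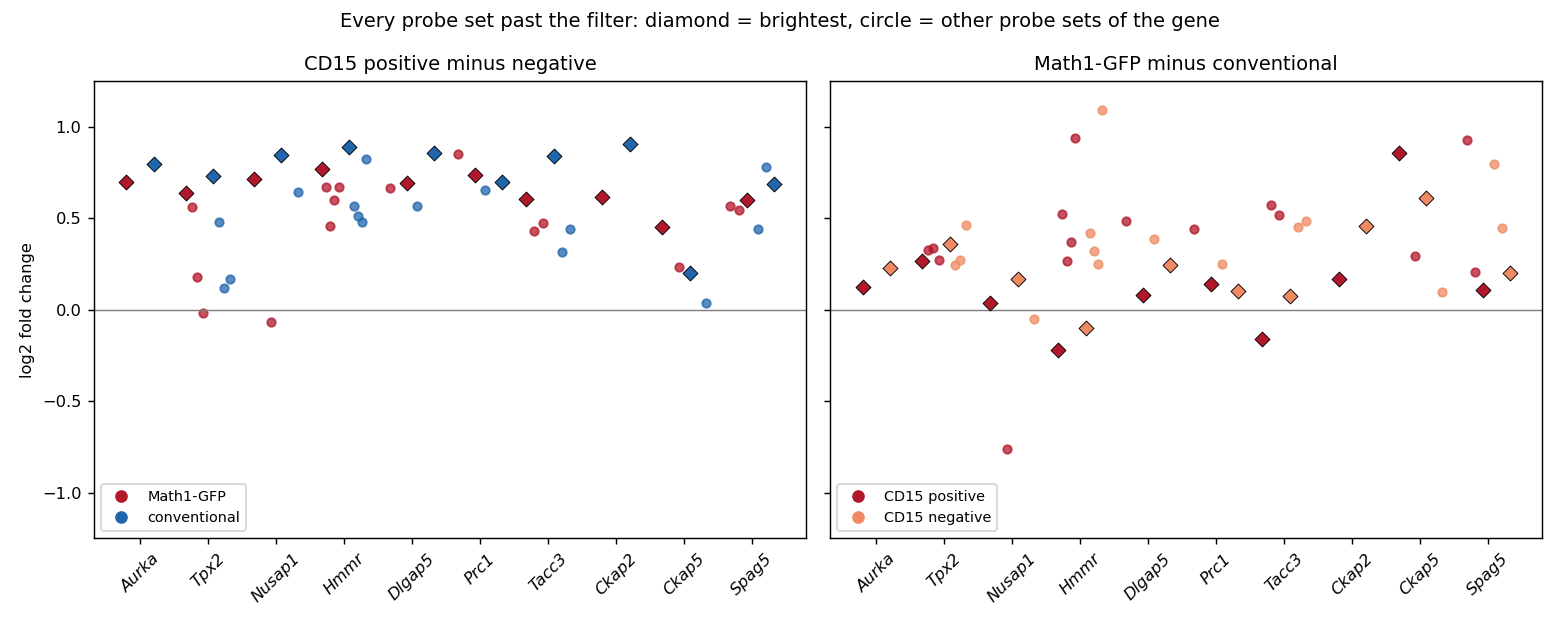
Log2 fold change of each of the 25 probe sets past the filter, by gene, for the CD15 comparison in each model (left) and the model comparison in each CD15 fraction (right); diamonds are the brightest probe set of a gene and circles its others. On the left nearly all points lie above 0, while on the right the probe sets of 1 gene spread over up to 1.19 (Hmmr, CD15 negative cells), and over 0.82 for Spag5, 0.80 for Nusap1, 0.73 for Tacc3 and 0.56 for Ckap5 in CD15 positive cells.

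The 10 genes varied together from array to array. After removing group means, the Pearson correlation over the 21 arrays between 2 of the genes was 0.42 to 0.93 in the 45 pairs, with a median of 0.66. These values are a description, since the arrays share their scaling and same-numbered conventional arrays deviate together. The 9 pairs with Ckap5 had 0.51 to 0.69. With group means removed, the mean correlation of Ckap5 with the other genes was 0.62, within the range of the others, 0.61 (Ckap2) to 0.77 (Tpx2). With group means kept, Ckap5 had a mean correlation of 0.50 with the other genes, against 0.79 (Hmmr) to 0.87 (Tpx2) for the others. In conventional CD15 negative cells, 9 of the 10 genes were lowest in array 5 (all but Ckap5), and 7 were highest in array 6. Among Math1-GFP CD15 negative arrays 7 genes were highest in array 6. For these counts the share of all genes was not computed. Conventional CD15 negative array 5 also had the highest median signal of the 21 arrays (32.7, against a lowest of 22.1).

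The genes most like the 10, by Pearson correlation over the 21 arrays with their mean standardised value, were Aurkb (r = 0.955), Ccna2 (0.953), Gpsm2 (0.947), Plk1 (0.942) and Bub1b (0.941). Spdl1, Cdca3, Cep55, Ska1 and Ncapg followed (0.933 to 0.941). Aurkb is the kinase of the chromosomal passenger complex, Ccna2 encodes cyclin A2, Plk1 is a mitotic kinase and Bub1b a protein of the spindle checkpoint. With group means removed, these 10 correlations were 0.75 to 0.89.

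Other spindle genes were taken from 4 lists. The first holds 21 genes of microtubule nucleation, the augmin subunits (Haus genes), which branch new microtubules from old ones, and the gamma-tubulin ring and centrosome proteins. In conventional tumours 3 of the 21 rose in CD15 positive cells and none fell, with a median log2 fold change of 0.21. Of all genes, 3.05% rose and 5.09% fell. All 3 were augmin subunits: Haus4 (0.58 ± 0.13, SE, adjusted p = 0.0085), Haus3 (0.55 ± 0.14, adjusted p = 0.020) and Haus1 (0.42 ± 0.12, adjusted p = 0.043). Haus6 was at 0.47 (adjusted p = 0.052). No gamma-tubulin ring subunit passed, and the tubulin genes Tubg1 and Tubg2 were at 0.27 and -0.26. Quantile normalization took Haus1 out of the calls (adjusted p = 0.062), and Haus3 did not in the conventional groups alone (adjusted p = 0.071).

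The second list holds binding partners and regulators of the 10 genes, of which 19 of 20 were tested. In conventional tumours 11 rose and none fell (median 0.53), against 3.05% and 5.09% of all genes. The importin Kpna2, which holds Tpx2 inactive until Ran releases it, was at 0.97 ± 0.16 (SE, adjusted p = 0.0011). Knstrn, the partner of Spag5 at kinetochores, was at 0.90 ± 0.18 (adjusted p = 0.0034), Fam83d, a spindle partner of Hmmr, at 0.78 ± 0.16 (adjusted p = 0.0049) and Gtse1 at 0.65 ± 0.13 (adjusted p = 0.0039). The other 8 tested did not pass, and 5 of them had estimates below 0, from -0.50 (Clasp2) to -0.02 (Numa1). Clasp2 and Numa1 are named as the ends of that range, after their values were seen.

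Of 13 tested spindle and midzone motors and their partners, all 13 had positive estimates in conventional tumours and 8 rose (median 0.64), against 3.05% of all genes. The kinesins Kif18b (0.76 ± 0.16, SE, adjusted p = 0.0062), Kif2c (0.69 ± 0.15, adjusted p = 0.0064), Kif23 (0.87 ± 0.19, adjusted p = 0.0065) and Kif4, which works with Prc1 (0.58 ± 0.13, adjusted p = 0.0087), had the smallest p. In the list of relatives the directions were mixed, with 1 called higher and 3 lower, against 3.05% and 5.09% of all genes. Of 8 tested, Aurkb rose (1.01 ± 0.20, adjusted p = 0.0035), and Tacc2 (-0.67 ± 0.14, adjusted p = 0.0057), Dlgap1 (-0.64 ± 0.18, adjusted p = 0.035) and Dlgap4 (-0.45 ± 0.14, adjusted p = 0.045) fell. Dlgap1 and Dlgap4 encode scaffold proteins of the synapse, and in conventional tumours their direction was opposite to that of the mitotic Dlgap5. Dlgap3 was tested too and did not pass. With quantile normalization Dlgap1 had an adjusted p of 0.062 and Dlgap4 of 0.081. The sign of the Dlgap1 estimate in Math1-GFP tumours varied between alternatives. In Math1-GFP tumours no gene of the 4 lists passed in limma, with medians of 0.11, 0.46, 0.64 and -0.07 in the order given. At an unadjusted p under 0.05 in either direction the counts there were 3 of 21, 10 of 19, 11 of 13 and 3 of 8, against 8.68% of all genes. All were higher in CD15 positive cells except 2 of the 3 relatives, Tacc2 and Dlgap4, which were lower.

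**Figure D4:**
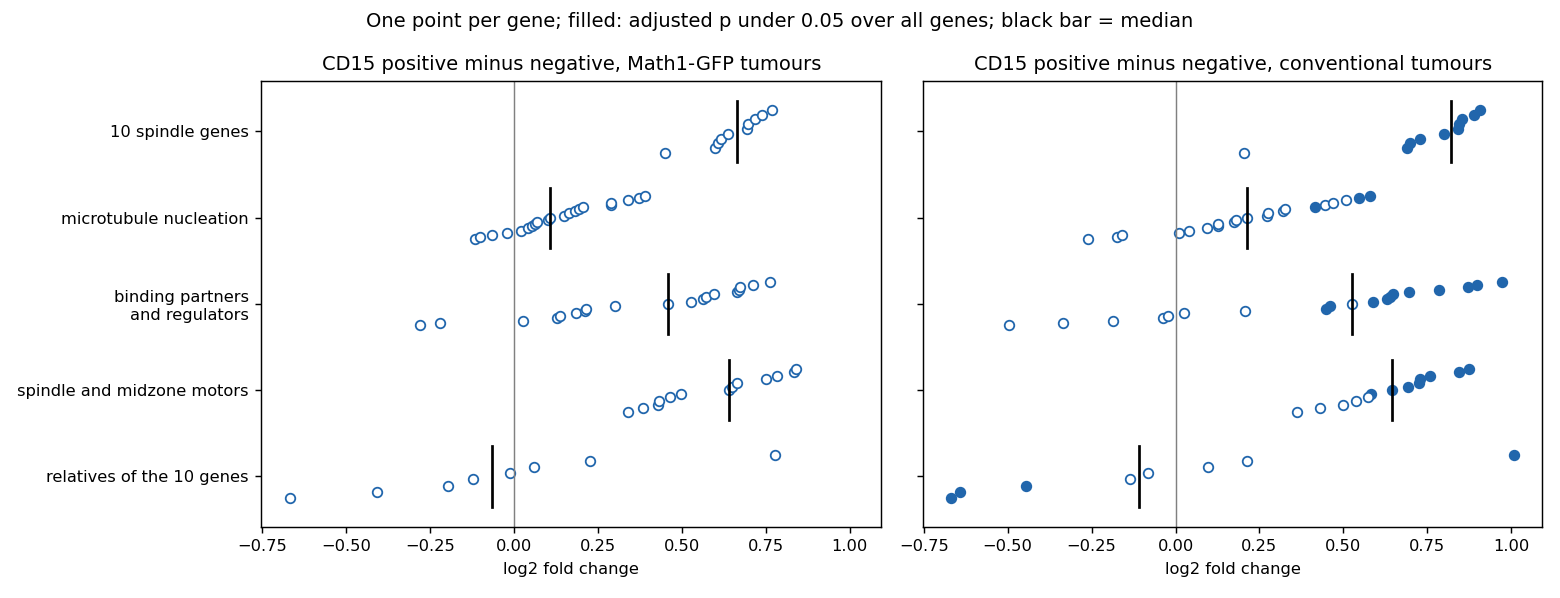
Log2 fold change between CD15 positive and CD15 negative cells for the 10 spindle genes and 4 lists of related genes, with 1 point per gene, in Math1-GFP tumours (left) and conventional tumours (right); filled points passed an adjusted p of 0.05 and black bars are medians. In conventional tumours the medians are 0.82 for the 10 genes and 0.64 for the motors, against 0.21 for microtubule nucleation and -0.11 for the relatives.

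Marker lists of other cells were summed on the same arrays. All 12 markers of differentiating neurons passed the filter, and 10 of them fell in CD15 positive cells of conventional tumours, where 5.09% of all genes fell. Their summed signal had a lowest, median and highest of 7210.2, 9747 and 13143 in CD15 positive arrays, against 15537, 18781 and 31791 in CD15 negative arrays. The highest value belonged to CD15 negative array 5, in which 9 of the spindle genes were lowest and the median signal of the whole array was highest. In Math1-GFP tumours the sum was 8003 to 13790.3 in CD15 positive arrays, against 13397 to 22001 in CD15 negative arrays, with 0 of 12 called in limma. The 12 microglia and macrophage markers, of which 11 were tested and none was called within either model, summed to 697 to 12740 in CD15 positive and 282 to 4298 in CD15 negative arrays of conventional tumours. They summed to 335 to 1623 in CD15 positive and 227 to 531 in CD15 negative arrays of Math1-GFP tumours. The highest of these Math1-GFP sums, 1623, belonged to CD15 positive array 1. The 7 astrocyte markers tested had a median CD15 difference of 1.11 in Math1-GFP and 0.40 in conventional tumours, and the 7 mural and fibroblast markers of 0.31 and -0.59 in the same order, with none called. All 9 astrocyte markers summed to 5101 in Math1-GFP CD15 positive array 1 and to 1686 to 2078 in the others of that group. Math1-GFP CD15 negative arrays had astrocyte sums of 816 to 1938. Between the models 4 of the 11 microglia markers were lower in Math1-GFP tumours among CD15 positive cells (median -1.52), where 12.2% of all genes were lower. Among CD15 negative cells 3 of the 7 mural markers were lower (median -1.31), where 10.5% of all genes were. Called higher in Math1-GFP tumours among CD15 positive cells were 2 of 12 neuronal, 2 of 6 oligodendrocyte lineage, 1 of 7 astrocyte and 1 of 7 granule lineage markers. There 10.9% of all genes were called higher. Among CD15 negative cells 1 of 6 oligodendrocyte lineage markers was, against 7.91% of all genes. The part of these markers in the spindle gene differences, that of Ckap5 between the models included, was not tested. All 7 granule lineage markers passed the filter, and the lowest group median among them was 303 (Zic2, CD15 positive Math1-GFP cells). Their median CD15 difference was -0.34 in Math1-GFP tumours, with 0 called, and -0.24 in conventional tumours, with 1 called lower. Of 6 endothelial markers 3 passed the filter and none was called, and Cldn5 had group medians of 64.4 to 80.2, while Pecam1, Flt1 and Tek lay below the filter.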

How the data were processed

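Probe set intensities of 21 Affymetrix arrays were used as deposited. The steps by which the authors made these intensity values are not given in the sources used here. After removing 2% at each end, the mean is 150.0 on each array. The intensities were put on a log2(signal + 32) scale. The 64 control probe sets, those with no or several symbols in the platform annotation, and those below the 40th percentile of mean log2 value (a signal of about 15.5) were left out. Each gene is represented by its brightest probe set, which leaves 12367 genes. In R 4.3.3, limma 3.58.1 fitted 4 group means with 17 residual degrees of freedom and tested 5 contrasts by eBayes with Benjamini-Hochberg adjustment. The fit was tested on simulated data. The 10 genes, the lists and the tests were chosen with earlier results of these data known. The text names all 10 genes, some of their probe sets, the 4 genes of smallest p in each list in conventional tumours and the 10 genes most correlated with the 10.

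Conventional titles share the numbers 2 to 6 between CD15 fractions. Deviations from the group means correlated between arrays of the same number (r = 0.58 to 0.76 in the 5 pairs, at most 0.48 for arrays of different numbers), so the numbers were taken as pairs. The block fit is reported beside results whose call it alters. Unnumbered conventional arrays are called replicate 1. They correlated between fractions as well (r = 0.72), but their titles give no number and they are not in the block fit. The alternatives were quantile normalization, pseudocounts, filters, probe set summaries, fits of 2 groups, eBayes settings, array weights, blocks and subsets of arrays. An array has no read depth, so the number of arrays limits the precision.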

Additional observations from a re-analysis of the deposited data

Results flagged for a closer look

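In 2 of 40 combinations of gene and group, 1 array lay far from the others by Dixon's ratio, the gap to the nearest array divided by the range of the group. Chance gives about 1 in 20. Tpx2 was high in Math1-GFP CD15 positive array 5 (ratio 0.868), where its signal was 1319 against 1132 to 1155 in the other arrays of that group. Prc1 was low in conventional CD15 positive array 5 (ratio 0.711), at 682 against 891 to 993.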

How the results depend on the processing

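Each of the 10 genes was recomputed under 38 alternatives, 21 of which leave out 1 array. In conventional tumours 9 genes were called and the median log2 fold change was 0.71 to 0.93 whichever array was left out. In the unnumbered arrays with array 6 the count was 0 and the median 0.59. With probe sets averaged it was 7. In Math1-GFP tumours, 0 called became 8 with array weights, 8 with the replicate block among numbered arrays, 3 with consecutive Math1-GFP numbers as a block, 2 with conventional arrays 2 to 5 only, and 1 with the larger pseudocount or with the 2 conventional sets as a block. Over all genes, those called higher went from 2 to 77, 72, 18, 10, 6 and 15 in the same order. The count of the 10 genes was 0 to 1 on leaving out an array (1 without conventional CD15 negative array 5). Between models in CD15 positive cells, 1 called became 2 with averaged probe sets and stayed 1 on leaving out any array. Over all genes, those called higher there went from 1347 to 1897 with averaged probe sets. In CD15 negative cells, 1 became 3 with averaged probe sets or conventional arrays 2 to 5 only, and 2 with array weights, the replicate block or consecutive numbers as a block. Over all genes, those called higher there went from 978 to 1666, 1359, 1736, 1352 and 1200 in the same order. The count of the 10 genes in CD15 negative cells was 1 to 3 on leaving out an array. It was 3 without conventional CD15 negative array 6, where 1137 of all genes were called higher. The replicate block changed no other call of the 10 genes. The causes were not tested.

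The values below changed sign, and none of them had been called. Dlgap1 in Math1-GFP tumours was -0.13 with averaged probe sets and -0.13 to 0.18 on leaving out an array. The model difference of the CD15 effect, with the unnumbered arrays and array 6 only, was 0.22 for Aurka, 0.12 for Tpx2, 0.083 for Nusap1, 0.042 for Hmmr, 0.069 for Dlgap5, -0.0054 for Prc1, 0.057 for Ckap2 and 0.12 for Spag5. On leaving out an array it was -0.24 to 0.019 for Aurka, -0.22 to 0.014 for Tpx2, -0.044 to 0.13 for Prc1 and -0.19 to 0.032 for Spag5. Between models in CD15 positive cells, averaged probe sets gave -0.36 for Nusap1, 0.38 for Hmmr and 0.31 for Tacc3. Array weights gave -0.0046 for Dlgap5 and -0.0032 for Ckap2. The unnumbered arrays with array 6 gave -0.012 for Aurka and -0.045 for Nusap1. Leaving out an array gave -0.099 to 0.16 for Nusap1 and -0.0026 to 0.17 for Dlgap5. In CD15 negative cells Hmmr was 0.40 with averaged probe sets (adjusted p = 0.035) and 0.024 without Math1-GFP arrays 1 and 2. Leaving out an array gave -0.18 to 0.024 for Hmmr and -0.034 to 0.19 for Tacc3. The unnumbered arrays with array 6 gave -0.23 for Aurka, -0.13 for Nusap1, -0.24 for Tacc3 and -0.045 for Spag5.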
